A study of Mus musculus with 29 samples.

Results

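The complement members described here are 9 mouse genes, C1ra, C1s1, C2, C4b, C3, Cfb, Cfd, C7 and Serping1, taken by symbol from a count table of 56953 genes. They were chosen by their higher level in 1 fat depot than in the other in these same data, so their depot values are given as a description without a test, and only contrasts that did not guide the choice are tested. The samples were 29 bulk RNA libraries of crude stromal vascular fraction (SVF), the non-adipocyte cells released when white fat is digested, from C57BL6/J mice. The cells came from inguinal (iWAT, subcutaneous) or perigonadal (pgWAT, visceral) fat of adult animals labelled male or female, and all of them were kept in PM1 medium with 1 nM basic fibroblast growth factor for 4 days before RNA was taken, so no untreated or uncultured group was compared. The labels put 10 libraries in iWAT male, 9 in iWAT female, 4 in pgWAT male and 6 in pgWAT female, all made with Smart-seq3, a full-length protocol. According to the paper the wells were technical replicates from a small number of independent experiments, fewer for pgWAT than for iWAT. No label ties a well to its experiment, so p-values measure well-to-well spread rather than differences between animals or experiments.

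Complement is a cascade of plasma proteins that tags surfaces and recruits immune cells. It can be started by C1, a complex of the recognition protein C1q with the proteases C1r and C1s. C1s then cuts C4 and C2 to form a convertase that cleaves C3, the central component, and another convertase, made of cleaved C3 and factor B once factor D has cut the latter, amplifies that step. The late components, among them C7, assemble into a pore, and inhibitors such as C1 inhibitor (Serping1) restrain the cascade. The liver makes most of the circulating proteins, fibroblasts and macrophages make several of them locally, and factor D was first described as adipsin, a product of fat cells.

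Total counts per library ranged from 315316 to 1102234. Levels are given as CPM, the count divided by the library total and its TMM factor and put on a common scale. A library with 0 counts of a gene can still hold up to 3 counts' worth of it, which is 2.58 CPM in the deepest and 9.76 CPM in the shallowest library, and these limits cover counting error only. In iWAT all 19 libraries had the sex-linked transcripts of their label. In pgWAT 5 of the 10 libraries did not, namely those labelled male replicates 2 and 4 and female replicates 1, 2 and 3, so the label was kept, and the contrasts of labelled sex are also given without these 5. Replicate numbers only name wells, in order of deposition, and pair nothing. Marker sums also differed between the depots and stand beside the depot results below.

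The 9 members together made 489 ± 226 CPM in iWAT (SD, n = 19) and 2076 ± 805 CPM in pgWAT (SD, n = 10). The iWAT libraries lay between 178 and 974 CPM and the pgWAT libraries between 1307 and 3979 CPM, so the sums did not overlap. The filter on low counts kept 8853 genes and 8 of the 9 members, C7 being the exception. All 8 were higher in pgWAT, with log2 fold changes (pgWAT minus iWAT, both sexes weighted equally) from 0.80 in C1ra to 4.72 in C3. Over all genes, 20.1% were called higher and 17.9% lower in pgWAT at a false discovery rate below 0.05 (FDR, edgeR quasi-likelihood test with Benjamini-Hochberg adjustment). Among libraries labelled male 20.3% of all genes were called in either direction, and among those labelled female 26.8%. Without the 5 libraries that went against their label these shares were 9.16% and 18.3%, and 23.7% with both sexes together. Members that passed the filter only because pgWAT was high had to differ, and the depot contrast guided their choice, so no calls are given for the members here. The median over the 8 was 1.20 and over all tested genes 0.01.

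**Figure D1:**
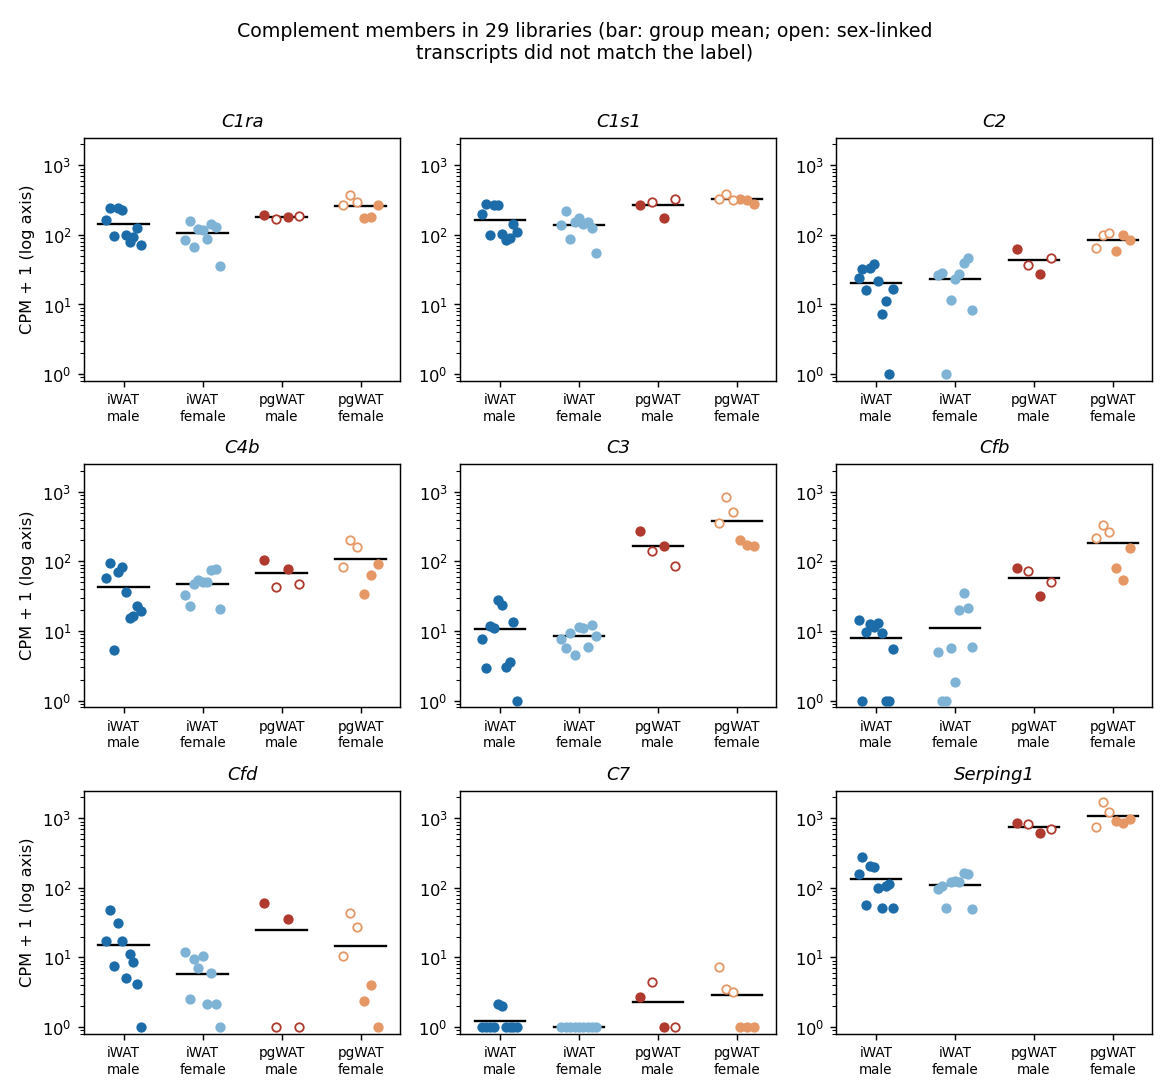
CPM plus 1 (log axis) of each member in every library, by depot and labelled sex, with the group mean of CPM as a bar and open points for libraries whose sex-linked transcripts did not match the label. C3 and Serping1 do not overlap between the depots, C4b and Cfd overlap widely, and C7 is at 0 counts in most libraries.

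The initiating proteases are C1ra, a C1r gene whose product activates itself and then C1s, and C1s1, a C1s gene whose product cuts C4 and C2. Both were found in all 29 libraries. C1ra (ENSMUSG00000055172.11) had 70.0, 111 and 246 CPM as lowest, median and highest value in iWAT male and 34.5, 117 and 158 CPM in iWAT female. It was at 194, 166, 179 and 187 CPM in the libraries labelled pgWAT male replicates 1 to 4, and at 174, 266 and 377 CPM as lowest, median and highest value in pgWAT female. All 10 pgWAT libraries were above the iWAT mean of 126 CPM, but 3 iWAT libraries exceeded the lowest pgWAT library, and the log2 fold change was 0.80 (SE 0.19). C1s1 (ENSMUSG00000038521.18) had 83.1, 126 and 278 CPM in iWAT male and 54.3, 141 and 218 CPM in iWAT female. In pgWAT it was at 272, 299, 172 and 322 CPM in the 4 libraries labelled male and at 273, 323 and 390 CPM (lowest, median, highest) in those labelled female. Its log2 fold change was 0.95 (SE 0.18), with 7 of 10 pgWAT libraries above the highest iWAT library.

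Both proteases have close copies in the mouse genome, C1rb and C1s2, which matters for what their counts mean. In the reference transcripts (Gencode, GRCm38) 56.9% of the 31-base stretches of C1ra also occur in C1rb, and 36.5% of those of C1s1 occur in C1s2, so reads from such stretches could belong to either copy. Over 2118 aligned coding bases C1ra and C1rb were 98.0% identical, and over 2082 aligned bases C1s1 and C1s2 were 95.7% identical. The copies took few counts, C1rb 6 in pgWAT and 2 in iWAT and C1s2 1 and 3, and with each pair summed the log2 fold changes were 0.80 for C1ra and 0.95 for C1s1, the same to 2 decimals. The 60 coding bases in which each pair differs most are shown because they are where a read can tell the copies apart, with the differing bases in capitals. There are 11 such bases for C1ra against C1rb, starting at coding base 1798 of C1ra, and 17 for C1s1 against C1s2, starting at coding base 1484 of C1s1.
C1ra: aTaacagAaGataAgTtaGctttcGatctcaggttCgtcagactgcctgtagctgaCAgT
C1rb: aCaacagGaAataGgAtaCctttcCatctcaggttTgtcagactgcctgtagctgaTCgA
C1s1: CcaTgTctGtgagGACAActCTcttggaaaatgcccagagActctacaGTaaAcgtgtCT
C1s2: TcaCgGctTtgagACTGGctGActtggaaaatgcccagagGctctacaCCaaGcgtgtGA

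C4b and C2 form the classical C3 convertase, C4b as the part that binds to the surface and C2 as its protease. C4b (ENSMUSG00000073418.5) had 4.33, 29.01 and 93.9 CPM (lowest, median, highest) in iWAT male and 19.7, 49.0 and 76.9 CPM in iWAT female. In pgWAT it was at 102, 41.5, 77.8 and 46.0 CPM in the libraries labelled male replicates 1 to 4 and at 33.2, 87.2 and 205 CPM in those labelled female. The depots overlapped more for C4b than for C1s1 or C1ra, since 11 of 19 iWAT libraries were above the lowest pgWAT library and only 3 pgWAT libraries were above the highest iWAT library. Its log2 fold change was 0.86 (SE 0.29). C2 (ENSMUSG00000024371.15) had 0, 18.4 and 36.9 CPM in iWAT male and 0, 25.6 and 45.2 CPM in iWAT female, against 60.8, 36.3, 26.4 and 45.0 CPM in pgWAT labelled male and 58.1, 91.0 and 106 CPM in pgWAT labelled female. All 10 pgWAT libraries were above the iWAT mean of 20.8 CPM, and the log2 fold change was 1.42 (SE 0.27).

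C4b has a partner as well, C4a, whose transcripts hold 48.8% of its 31-base stretches and are 96.1% identical to it over 5204 aligned bases. C4a had 7 counts over 5 pgWAT libraries and 17 counts over 10 iWAT libraries, so pgWAT stood at 0.914 times iWAT, with 95% counting limits of 0.320 and 2.32. The 60-base stretch of greatest difference, with 13 differing bases in capitals, starts at coding base 2705 of C4b and is shown as the place where a read best tells the genes apart. With C4a added to C4b the log2 fold change was 0.84.
C4b: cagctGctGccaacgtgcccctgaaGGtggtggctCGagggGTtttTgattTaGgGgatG
C4a: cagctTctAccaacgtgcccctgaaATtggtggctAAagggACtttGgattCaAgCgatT

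C3, cleaved by both convertases and the point at which all routes meet, had the largest difference among the members. C3 (ENSMUSG00000024164.16) was at 0, 8.38 and 26.5 CPM (lowest, median, highest) in iWAT male and at 3.57, 7.40 and 11.3 CPM in iWAT female, close to the limit of single libraries. It was at 276, 142, 168 and 85.7 CPM in the libraries labelled pgWAT male replicates 1 to 4 and at 352, 847, 510, 205, 173 and 166 CPM in those labelled pgWAT female replicates 1 to 6. The lowest pgWAT library was thus above the highest iWAT library, and the 3 highest values belonged to the libraries labelled pgWAT female replicates 1, 2 and 3. The log2 fold change was 4.72 (SE 0.29). Over all tested genes 1.47% lay above iWAT in every pgWAT library.

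The C3 promoter is shown because C3 moved most. The 250 bases before its start (RefSeq, GRCm38.p6, chr17:57228137-57228386, minus strand, read 5′ to 3′ along the gene) held 1 match, in capitals, to the C/EBP-type motif TTGCNNAA, 45 to 38 bases before the start, with C/EBP being a family of factors known from acute-phase and adipocyte genes. On both strands that motif occurs in the same window of 9.56% of 32851 promoters. The STAT-type motif TTCNNNGAA (7.02% of promoters), the interferon-type motif of GAAA, any 2 bases and GAAA (2.98%), the NF-kappaB-type motif of GGG, any 2 bases and TTTCC (1.41%) and the TATA box TATAAA (12.4%) had no match in this window.
C3: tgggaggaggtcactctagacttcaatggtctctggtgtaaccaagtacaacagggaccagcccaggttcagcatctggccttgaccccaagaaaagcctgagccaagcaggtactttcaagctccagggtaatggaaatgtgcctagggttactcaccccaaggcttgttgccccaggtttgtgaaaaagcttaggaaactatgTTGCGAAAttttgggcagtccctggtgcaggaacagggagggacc
The same window before Cfd (GRCm38.p6, chr10:79890603-79890852, plus strand), the member with the least regular depot difference, had no match to any of the 5 motifs and is shown for comparison.
Cfd: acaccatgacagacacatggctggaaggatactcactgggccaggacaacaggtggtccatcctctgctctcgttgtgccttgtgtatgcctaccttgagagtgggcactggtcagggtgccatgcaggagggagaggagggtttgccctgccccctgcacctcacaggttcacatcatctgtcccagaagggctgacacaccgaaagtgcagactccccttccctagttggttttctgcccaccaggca
Promoter sequences of 5 of the 9 members were found. Of those not shown, C1ra had no match, and C1s1 had 1 C/EBP-type match before 1 of its 2 starts. C7 had 1 match to the TATA box and 1 to the STAT-type motif. A match or its absence describes letters only.

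Cfb, the protease part of the amplifying convertase, followed C3 in size. Cfb (ENSMUSG00000090231.11) had 0, 8.48 and 13.2 CPM (lowest, median, highest) in iWAT male and 0, 4.76 and 34.7 CPM in iWAT female. It was at 79.8, 70.9, 30.6 and 49.3 CPM in the libraries labelled pgWAT male replicates 1 to 4 and at 214, 327, 265, 80.2, 53.4 and 153 CPM in those labelled pgWAT female replicates 1 to 6. All but 1 pgWAT library lay above every iWAT library, and the log2 fold change was 3.44 (SE 0.37). C2 and Cfb share reads with the annotated gene Gm20547, whose transcripts hold 59.8% of the 31-base stretches of C2 and 81.5% of those of Cfb. Some iWAT libraries with 0 counts of Cfb had counts of Gm20547. Among them male replicates 2, 8 and 9 held 16, 1 and 0 counts of it, and female replicates 2 and 3 held 3 and 6. With its counts added to both genes, an alternative chosen after seeing the data, the log2 fold changes were 1.31 for C2 and 2.97 for Cfb.

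Cfd, the protease that activates factor B, did not follow them. Cfd (ENSMUSG00000061780.7) had 0, 9.0 and 46.9 CPM (lowest, median, highest) in iWAT male and 0, 4.96 and 10.8 CPM in iWAT female. It was at 59.0, 0, 34.7 and 0 CPM in the libraries labelled pgWAT male replicates 1 to 4 and at 9.60, 42.5, 26.0, 1.38, 2.96 and 0 CPM in those labelled pgWAT female replicates 1 to 6. Only 4 of 10 pgWAT libraries exceeded the mean level of iWAT. The log2 fold change was 0.99 (SE 0.57), and it was -0.38 with limma-voom and -0.38 without well column 10.

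Of the terminal pathway C7 was the only member, and it was near the limit of detection. C7 (ENSMUSG00000079105.5) had 7 counts over 5 pgWAT libraries and 2 counts over 2 iWAT male libraries, so pgWAT stood at 7.77 times iWAT over pooled counts. With so few counts this ratio is very imprecise. It is a description only, because the depot contrast guided the choice of C7. The 5 libraries with counts included the 3 labelled pgWAT female replicates 1, 2 and 3, at 6.40, 2.50 and 2.17 CPM. All 9 iWAT female libraries had 0 counts.

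Serping1, the inhibitor of C1r and C1s, was the most abundant member in pgWAT. Serping1 (ENSMUSG00000023224.13) had 49.7, 108 and 280 CPM (lowest, median, highest) in iWAT male and 49.3, 119 and 161 CPM in iWAT female. It was at 847, 840.1, 618 and 693 CPM in the libraries labelled pgWAT male replicates 1 to 4 and at 749, 1689, 1248, 905, 862 and 986 CPM in those labelled pgWAT female replicates 1 to 6. No pgWAT library reached down to the highest iWAT library, and the log2 fold change was 2.88 (SE 0.21).

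The mix of members differed between the depots as a description. In iWAT C1s1 made 31.5 ± 4.65%, C1ra 25.7 ± 3.66% and Serping1 24.3 ± 3.75% of the members' summed CPM (SD, n = 19), and C3 made 1.96 ± 1.52%. In pgWAT Serping1 made 46.3 ± 4.88%, C1s1 15.5 ± 3.92%, C3 12.8 ± 4.79% and C1ra 11.3 ± 1.68% (SD, n = 10). Those shares are not scaled for transcript length. Levels of different genes were ranked per kilobase of the longest coding transcript. On that scale the order of mean levels in iWAT was Serping1 (68.3 ± 35.0 CPM per kilobase), C1s1 (51.5 ± 22.8), C1ra (42.1 ± 20.1), Cfd (10.6 ± 12.6), C4b (8.15 ± 4.89), C2 (7.87 ± 4.92), Cfb (3.01 ± 3.29), C3 (1.68 ± 1.32) and C7 (0.04 ± 0.13). Neighbours in that order differed by less than the larger of their SDs except C1ra and Cfd, and C3 and C7. In pgWAT the order was Serping1 (534 ± 177 CPM per kilobase), C1s1 (102 ± 19.1), C1ra (76.7 ± 23.5), C3 (56.9 ± 44.9), Cfb (48.1 ± 37.4), C2 (25.7 ± 10.6), Cfd (19.1 ± 23.3), C4b (16.9 ± 10.2) and C7 (0.61 ± 0.79). There Serping1 and C1s1, C1s1 and C1ra, and C4b and C7 differed by more than the larger SD, and C3 came directly after C1ra instead of after Cfb.

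**Figure D2:**
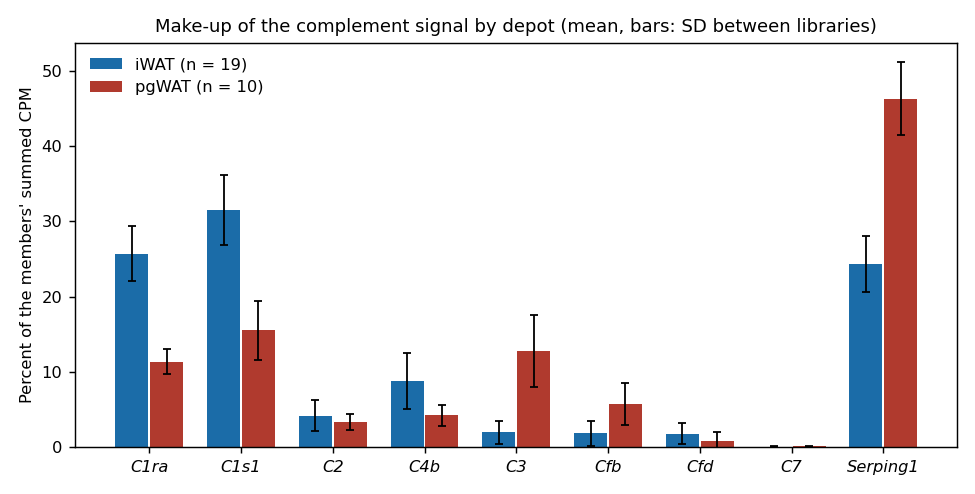
Mean percent of the members' summed CPM taken by each member in iWAT (n = 19) and pgWAT (n = 10), with bars for the SD between libraries. Serping1 takes 46.3% in pgWAT against 24.3% in iWAT and C3 takes 12.8% against 1.96%, while the shares of C1ra and C1s1 are smaller in pgWAT.

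Markers of other cell types also moved with depot, and their part in the member values was not tested. In these bulk cultures more cells of a type and more RNA per cell cannot be told apart. Of 7 mesothelial markers 4 passed the filter, 3 of them higher in pgWAT (Upk3b at a log2 fold change of 7.22, Upk1b at 5.95 and Wt1 at 4.88) and Krt19 lower (-1.43), and their summed level ranged from 1.96 to 98.7 CPM in iWAT and from 59.0 to 189 CPM in pgWAT. Lrrn4 and Muc16 were at 0 counts in all iWAT libraries. Of 8 macrophage markers 5 passed the filter and 3 were higher (Lyz2 at 1.15, Cd68 at 1.13, Csf1r at 0.88), with sums from 619 to 2423 CPM in iWAT and from 708 to 7775 CPM in pgWAT and none at 0 counts in either depot. Of 4 fibroblast markers, which mark the main cell of such cultures, 3 were higher (Col1a1 at 1.22, Dcn at 0.64, Pdgfra at 0.56) and Lum was at -0.48 (FDR 0.103), with sums from 1866 to 5119 CPM in iWAT and from 2560 to 9711 CPM in pgWAT. Smooth muscle markers (3 of 4 passed the filter and all 3 were higher, sums from 584 to 3539 CPM in iWAT and from 1337 to 3130 CPM in pgWAT), endothelial markers (3 of 4 passed the filter and 1, Kdr, was higher, sums from 23.8 to 88.6 and from 35.96 to 99.2 CPM) and epithelial markers (2 of 4 passed the filter and neither was called, sums from 0 to 1355 and from 10.4 to 152 CPM) completed the lists, and the 4 pericyte and 4 adipocyte markers did not pass the filter. The 5 pgWAT libraries with the highest macrophage sums (2157 to 7775 CPM), those labelled male replicates 1 and 3 and female replicates 1, 2 and 3, had C3 between 168 and 847 CPM and included the 4 highest C3 values. The other 5, with sums between 708 and 1122 CPM, had C3 between 85.7 and 205 CPM. The first 5 were also the pgWAT libraries with 10 or more counts of Y-linked genes, and the other 5 had at most 1. A division by macrophage sum and one by sex-linked transcripts cannot be told apart here. The order of C3 by macrophage sum did not hold within the first 5. There the libraries labelled male replicates 1 and 3 had sums of 7175 and 7775 CPM and C3 of 276 and 168 CPM. Those labelled female replicates 1, 2 and 3 had sums of 2157, 3244 and 3074 CPM and C3 of 352, 847 and 510 CPM.

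The position on the library plate moved with several members. The 3 pgWAT libraries of well column 10, which are those labelled female replicates 1, 2 and 3 and are also libraries whose sex-linked transcripts did not match, had the 3 highest values of C3 and Cfb. Their C3 lay between 352 and 847 CPM and their Cfb between 214 and 327 CPM, whereas the other 7 pgWAT libraries lay between 85.7 and 276 CPM for C3 and between 30.6 and 153 CPM for Cfb. The 1 iWAT library of that column had 8.44 CPM of C3 and 0 of Cfb, within the range of the other iWAT libraries. Without column 10, a choice made after seeing the data and with 30.8% of all genes called, the log2 fold change was 4.19 for C3, 2.90 for Cfb, 2.71 for Serping1 and 0.44 for C4b. Within column 8 the 3 libraries labelled pgWAT female stood above the 3 iWAT female libraries by 4.32 for C3, 2.65 for Serping1 and 1.82 for Cfb on the log2 scale, and C4b was at -0.22. Within column 9 the 2 libraries labelled pgWAT male, neither of which matched its label, stood above the 3 iWAT male libraries by 2.96 for C3, 3.40 for Serping1 and 2.52 for Cfb. Columns are all that the labels give of the layout, and whether a column marks an experiment is not stated.

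**Figure D3:**
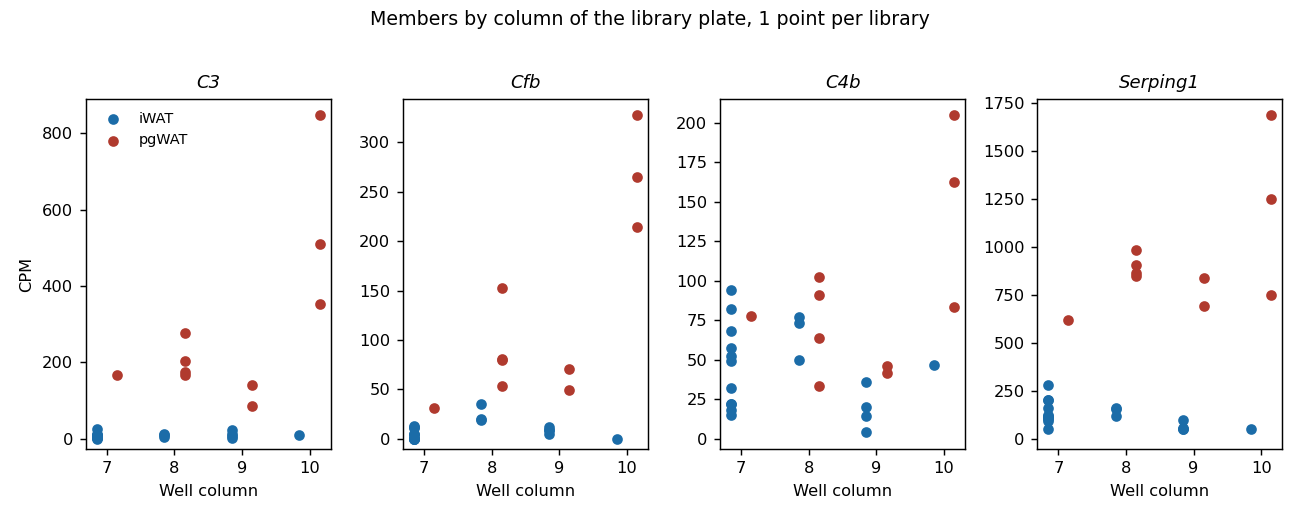
CPM of C3, Cfb, C4b and Serping1 in every library by column of the library plate, with iWAT in blue and pgWAT in red. The 3 pgWAT libraries of column 10 are the highest for C3 and Cfb, and C3 and Serping1 separate the depots in each column.

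The other genes of the pathway were taken from a list of 49, of which 15 passed the filter. In the depot contrast, in which 38.1% of all genes were called, edgeR called 11 of the 15 (10 higher and 1 lower in pgWAT, Benjamini-Hochberg FDR below 0.05), with a median log2 fold change of 1.25. Of the remaining 34 genes, 10 had 0 counts in all libraries, among them C6, C8b and C9 of the terminal pathway, and none had more than 99 counts over the 29 libraries. The most counts among them belonged to Hc, which encodes C5, with 17 in pgWAT and 82 in iWAT. Its mean CPM in pgWAT was 0.48 times that in iWAT.

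Among regulators the clusterin gene Clu, an inhibitor of pore assembly, was higher in pgWAT at 1.25 (edgeR FDR 0.0387) and lost that call in 12 of 42 alternatives, with FDR up to 0.608. Among them were the fits without iWAT male replicate 2 or 7, iWAT female replicate 1, 3 or 6, pgWAT male replicate 2 or 4 and pgWAT female replicate 3 or 4, each left out singly, with FDR up to 0.17. Cd55, a membrane protein that breaks up convertases, rose by 1.79 on the log2 scale in pgWAT (edgeR FDR 1.81e-06). The paper uses Cd55 as a marker of ASC2, an adipose stem cell subtype, and also reports it as higher in the pgWAT cultures. The part of that subtype in the Cd55 values was not tested.

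The recognition chains C1qa (1.97), C1qc (1.97) and C1qb (1.93), known as macrophage products, were higher in pgWAT at an edgeR FDR of 1.73e-06 or less. Beside them the receptor chains Itgam (1.55) and Itgb2 (1.20), which form complement receptor 3 on myeloid cells, and properdin, Cfp (0.84), passed the test in the same direction, with FDR up to 0.0236. All 6 are expressed by macrophages, whose marker sums are given above. Within well column 8 Itgam was called higher (1.20, FDR 0.0361), none of C1qa (0.24), C1qb (0.00), C1qc (-0.21), Itgb2 (0.00) and Cfp (-0.46) was called, and the macrophage sums there were between 619 and 694 CPM in the 3 iWAT female libraries and between 708 and 810 CPM in the 3 libraries labelled pgWAT female. Within column 9 C1qa (1.85, FDR 0.00182) and C1qc (1.39, FDR 0.029) were called higher, Cfp was called lower (-1.03, FDR 0.0486), and C1qb (0.75), Itgam (0.05) and Itgb2 (-0.68) were not called. There the macrophage sums were 1848, 1422 and 1512 CPM in iWAT male replicates 3, 6 and 7. In the libraries labelled pgWAT male replicates 2 and 4 they were 1122 and 1069 CPM. The part of macrophages in these calls was not tested. Cfp also lost its call without pgWAT male replicate 1 or 3 or pgWAT female replicate 2 or 3, each left out singly (FDR up to 0.204). C1rl, a C1r-like protease, was higher by 1.72 (edgeR FDR 0.000102).

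Masp1, a protease of the lectin route, was the 1 complement gene called lower in pgWAT, at a log2 fold change of -1.75 (SE 0.28, edgeR FDR 7.65e-06). Its mean was 39.7 ± 14.3 CPM (SD) over the 10 male and 97.6 ± 21.9 CPM over the 9 female iWAT libraries. In pgWAT it was 17.2 ± 13.8 CPM over the 4 libraries labelled male and 17.7 ± 15.5 CPM over the 6 labelled female. Within well column 9 it was at 0.13 (FDR 0.862). That fit set the libraries labelled pgWAT male replicates 2 and 4, neither of which matched its label, against iWAT male libraries alone. The iWAT female library of that column, replicate 9, was not in it and had 86.4 CPM of Masp1. The receptors C3ar1 (0.49) and C5ar1 (0.51) and the membrane regulators Cr1l (0.06) and Cd59a (-0.69) did not pass the test.

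**Figure D4:**
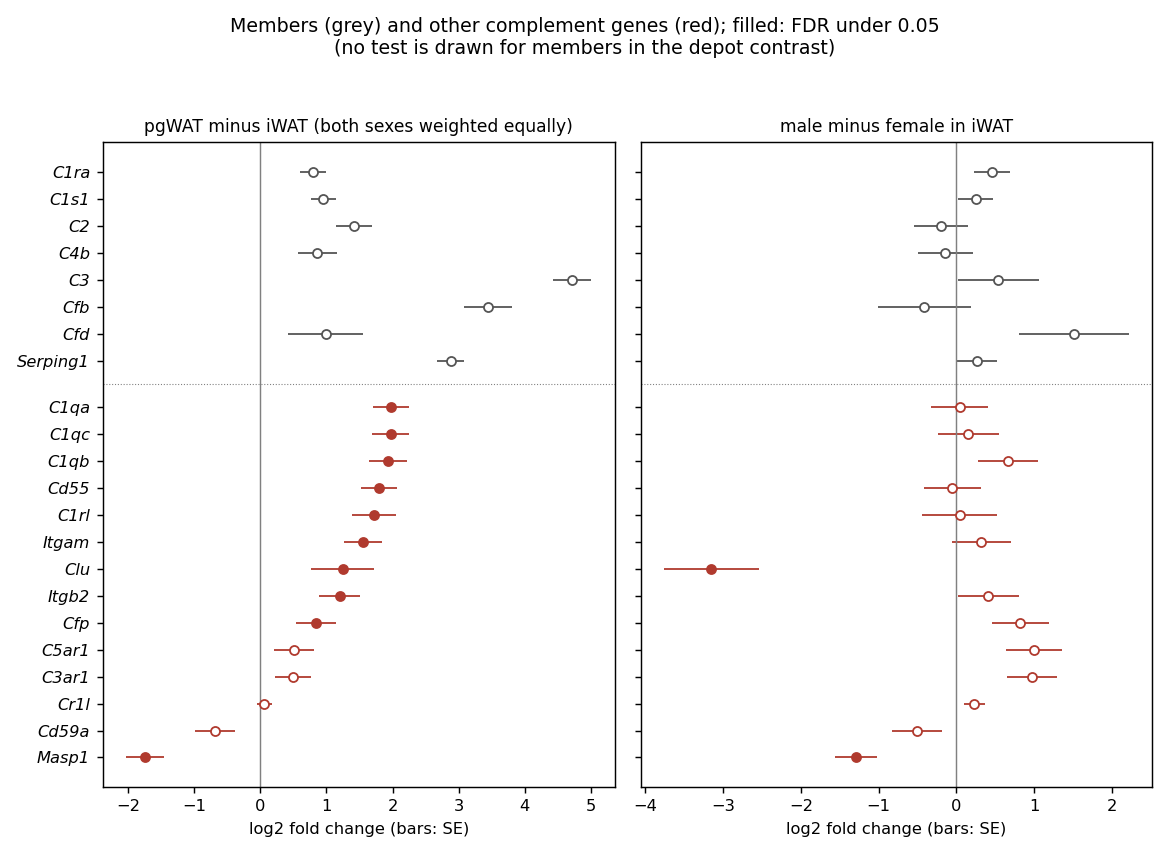
Log2 fold changes with SE of the members (grey) and of other complement genes that passed the filter (red), pgWAT minus iWAT on the left and male minus female in iWAT on the right, filled where edgeR gave an FDR below 0.05, with no test drawn for members on the left. On the left the red genes from C1qa down to Cfp are called higher and Masp1 is called lower, and on the right only Clu and Masp1 are called.

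Cytokines and transcription factors known to induce complement genes were read from a list of 14, of which 6 passed the filter. In the depot contrast 3 were called, all higher in pgWAT, the direction of 20.1% of all genes. Lif, a cytokine of the interleukin-6 family, had a log2 fold change of 1.51 (edgeR FDR 0.00319), Stat3, which acts downstream of that family, 0.73 (FDR 2.53e-06), and Rela, a subunit of NF-kappaB, 0.43 (FDR 0.00408). Nfkb1 (0.12) and Irf1 (-0.28) did not pass the test. Of the 8 that failed the filter, Il6 had 22 counts over all 10 pgWAT libraries and 7 counts over 7 iWAT libraries. Cebpd had 36 and 33, Osm 20 and 11, Cebpb 32 and 45, and Tnf 6 and 13. Ifng had 1 and 0, Ifnb1 0 and 1, and Il1b 0 in both. These sums are not scaled for the larger number of iWAT libraries. As ratios of mean CPM, pgWAT stood at 6.70 times iWAT for Il6, 4.42 for Osm, 2.68 for Cebpd, 1.48 for Cebpb and 0.91 for Tnf, all from few counts. Without the pgWAT libraries that went against their label only Stat3 was called, 1 of 6 where 23.7% of all genes were called.

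Whether members differ by sex was tested in iWAT, where every label matched. None of the 8 members was called by edgeR, DESeq2 or limma-voom in male minus female, a contrast in which edgeR called 3.22% of all genes, and 1 member, Cfd, had an unadjusted p below 0.05. None was called within well column 7, which held 11 of the 19 iWAT libraries and where 2.66% of all genes were called, or without column 10 (3.07%). Mean Cfd was 14.2 ± 14.5 CPM (SD) over the 10 male and 4.82 ± 4.07 CPM over the 9 female libraries, a log2 fold change of 1.51 (SE 0.71, FDR 0.288), and it was called with well column as a factor (2.15, FDR 0.0427). The other log2 fold changes were 0.54 (SE 0.52) for C3, 0.46 (SE 0.23) for C1ra, 0.26 (SE 0.26) for Serping1, 0.25 (SE 0.22) for C1s1, -0.14 (SE 0.36) for C4b, -0.20 (SE 0.35) for C2 and -0.41 (SE 0.60) for Cfb. These contrasts left wide ranges, which for C3 reached from -0.49 to 1.57 at 2 SE on either side. The median over the 8 was 0.25 and over all tested genes 0.01.

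Of the other complement genes, 2 of 15 were called in that contrast, both lower in male, the direction of 2.13% of all genes (1.08% were higher). Masp1 was lower in male iWAT with a log2 fold change of -1.29 (SE 0.27, edgeR FDR 0.0051) and had 69.6 CPM in the lowest female library against 60.9 CPM in the highest male library. Clu was at 3.91, 10.3 and 26.9 CPM (lowest, median, highest) in male and at 22.6, 48.5 and 765 CPM in female libraries, a log2 fold change of -3.15 (SE 0.61, edgeR FDR 0.00246). The value of 765 CPM belonged to iWAT female replicate 9, the library with the highest epithelial marker sum (1355 CPM), and without it the change was -1.74 and still called. With limma-voom Clu was not called (FDR 0.0534). Epithelial markers were far higher in female iWAT (29.4 to 1355 CPM against 0 to 6.23 CPM in male), macrophage markers were higher in male (1422 to 2423 CPM against 619 to 1098 CPM). Of the fibroblast markers 2 of 4 (Col1a1 at -1.23 and Lum at -1.38) and of the smooth muscle markers 2 of 3 tested (Tagln at -1.23 and Acta2 at -1.01) were called lower in male, as Masp1 and Clu were. Their sums were 2340 ± 486 and 739.7 ± 84.5 CPM (SD) over the 10 male against 4158 ± 865 and 1537 ± 831 CPM over the 9 female libraries. The part of these cell types in the calls was not tested.

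In pgWAT none of the 8 members was called between libraries labelled male and female by edgeR, DESeq2 or limma-voom, in a contrast that called 0.0113% of all genes. Unadjusted p-values were below 0.05 for 3 members, Cfb (log2 fold change -1.65, SE 0.52, edgeR FDR 0.317), C3 (-1.17, SE 0.39, FDR 0.356) and C2 (-1.02, SE 0.42, FDR 0.509), all lower in the libraries labelled male. Without the 5 libraries that went against their label these values were -0.77, 0.25 and -0.93, so the one for C3 changed sign. In that fit Cfd was called, with a log2 fold change of 4.56 (SE 1.05, edgeR FDR 0.00516), in a contrast that then called 5.63% of all genes and set 2 libraries labelled male against 3 labelled female. The depot by sex interaction called none of the 8 members by any of these tools, against 0.181% of all genes (2.56% without the libraries that went against their label), and 2 members (C3 at -1.71 and C1ra at -0.96) had an unadjusted p below 0.05. Without those 5 libraries C3 was at -0.29 (SE 0.54, edgeR FDR 0.917) and C1ra at -0.60 (SE 0.51, FDR 0.758).

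Cfd values went with the sex-linked transcripts of single pgWAT libraries, which is given as values only. The libraries labelled male replicates 1 and 3 and female replicates 2 and 3 held 34, 32, 23 and 26 Y-linked counts, summed over Ddx3y, Eif2s3y, Kdm5d and Uty, and 0 counts of Xist, the transcript of the inactive X chromosome, and Cfd was at 59.0, 34.7, 42.5 and 26.0 CPM. The libraries labelled male replicates 2 and 4 and female replicates 4, 5 and 6 had between 22 and 60 counts of Xist and at most 1 Y-linked count, and Cfd was at 0, 0, 1.38, 2.96 and 0 CPM. The library labelled female replicate 1 had 10 Y-linked and 7 Xist counts and 9.60 CPM of Cfd. Summed adipocyte markers (Adipoq, Plin1, Lep and Cidec) were at 26.0, 15.3, 9.997 and 10.9 CPM in the first 4 of these libraries and between 0 and 3.25 CPM in the next 5. In iWAT the adipocyte sums ranged from 2.54 to 43.0 CPM in male and from 0 to 10.7 CPM in female libraries. The highest iWAT value of Cfd, 46.9 CPM, was in the male library with the highest adipocyte sum, 43.0 CPM. Male replicates 1 and 9, with the next highest adipocyte sums of 37.9 and 22.2 CPM, had 16.5 and 3.17 CPM of Cfd. Male replicates 6 and 10 of iWAT, with 64 and 50 Y-linked counts, had 3.98 and 0 CPM of Cfd. The adipocyte sums rest on few counts. Summed macrophage markers divided the pgWAT libraries in the same way, at 7175, 7775, 3244 and 3074 CPM in the first 4, between 708 and 1122 CPM in the next 5 and at 2157 CPM in the library labelled female replicate 1. C3 was between 168 and 847 CPM in the first 4, between 85.7 and 205 CPM in the next 5 and at 352 CPM in that library. C4b was between 77.8 and 205 CPM, between 33.2 and 91.1 CPM and at 83.2 CPM in the same order. For both genes the first 4 and the next 5 overlapped. Without the 5 libraries that went against their label, 4 of 6 macrophage markers were called higher (median log2 fold change 2.90 over the 6) and 3 of 4 fibroblast markers lower in pgWAT labelled male than female. The part of adipocytes, macrophages or other cells in the Cfd, C3 and C4b values was not tested.

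**Figure D5:**
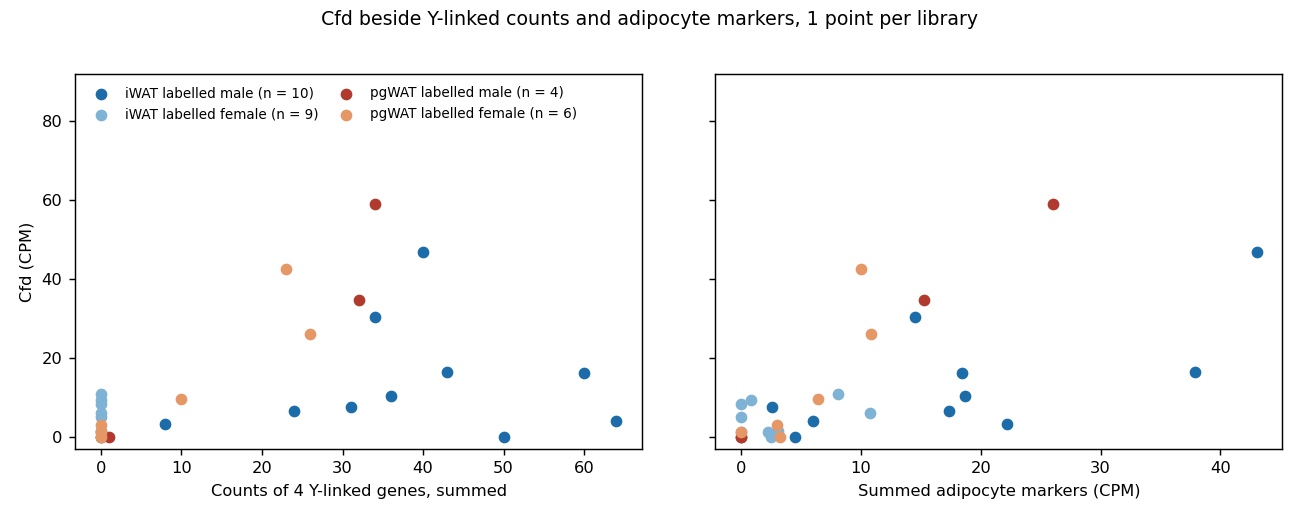
Cfd in CPM against the summed counts of 4 Y-linked genes (left) and against the summed CPM of 4 adipocyte markers (right), 1 point per library and colours by labelled group. The pgWAT libraries with 23 or more Y-linked counts have 26.0 CPM of Cfd or more, those with at most 1 have 2.96 CPM or less, and the library with 10 has 9.60 CPM.

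Which genes varied most like the members from well to well was described by Pearson correlation of log2 CPM over the 29 libraries, after the mean of each group was subtracted, among 5278 genes of average log2 CPM of at least 5. The points share plate, depth and the few experiments, so no p is given. For Serping1 the highest were Stat2 (r = 0.90), a transcription factor of the interferon response, Rnase4 (0.88), a secreted ribonuclease, and Fcgrt (0.87), the neonatal Fc receptor. Stat2 was at 0.94 within iWAT alone and at 0.53 within pgWAT alone, Rnase4 at 0.88 in both and Fcgrt at 0.89 and 0.72. Within the members and over all libraries Serping1 went with C1ra (0.88), C1s1 (0.82) and C4b (0.78) and little with C3 (0.31) or Cfb (0.25). This order held in iWAT, at 0.90, 0.85, 0.82, 0.24 and 0.18. In pgWAT Serping1 was at 0.66 with C1ra, 0.47 with C1s1, 0.63 with C4b, 0.69 with C3 and 0.68 with Cfb. For C4b the highest were Angptl2 (0.83), a secreted angiopoietin-like protein, H2-T23 (0.76), a nonclassical class I molecule, and Tor3a (0.75), a torsin family ATPase. For C3, which had 122 counts over 18 of the 19 iWAT libraries, the highest were Gypc (0.72), Timeless (0.67) and Skap2 (0.66). Within pgWAT alone (n = 10) C3 went with Cfd (0.87), C4b (0.81), Cfb (0.74), C1ra (0.73) and Serping1 (0.69) and within iWAT (n = 19) less so, at 0.05, 0.23, 0.28, 0.20 and 0.24. With C2 and C1s1 it stood at only 0.31 and 0.17 in pgWAT, and at 0.09 and 0.15 in iWAT. The subtracted group means followed the labels, also for the pgWAT libraries that went against them. The 3 libraries of column 10, the highest for C3, are among these 10, and the sparse counts of C3 in iWAT limit its correlation there.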

How the data were processed

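The authors trimmed adapters with NGmerge, quantified the Smart-seq3 reads with Salmon 1.9.0 on GRCm39 transcripts (STAR 2.7.10a for quality control) and deposited 1 table of expected counts per gene for the 29 libraries, not normalized. Of its values 96.5% were whole, and all were rounded. Symbols were matched for 52029 of 56953 gene IDs (91.4%), and IDs without one held 0.439% of counts. Tests used the two-sided quasi-likelihood F test of edgeR 4.0.16 (R 4.3.3) after TMM scaling and filterByExpr, in 1 model with a term for each of the 4 groups, and p-values were adjusted by Benjamini-Hochberg over all 8853 genes kept. Alternatives used DESeq2 1.42.0, limma 3.58.1 (voom), other scalings, no filter, well columns and libraries left out. The fit was tested on simulated data.

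The members and lists were chosen with earlier results of these data known. Named were all members, other complement genes and inducers called between depots or between sexes in iWAT (with those not called in the depot contrast added as values), the near-identical partners, and the 3 genes most correlated with C3, C4b and Serping1. Values of 2 list genes, which are included in the list counts, are not reported here. Gm20547 and the values of untested list genes were added after their values were seen. Per-kilobase levels, shared stretches and alignments used Gencode transcripts on GRCm38, and promoters came from RefSeq (GRCm38.p6). Totals ran from 315316 to 1102234 counts per library, and reads without molecular identifiers are not independent molecules.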

Additional observations from a re-analysis of the deposited data

Results flagged for a closer look

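Of 79 gene and group combinations examined for a library far from the others of its group, 2 stood out, and chance alone flags about 1 in 20. Both were Clu, the clusterin gene, in iWAT. In iWAT male replicate 6 Clu was at 26.88 CPM, while the other 9 male libraries lay between 3.91 and 15.8 CPM. In iWAT female replicate 9 it was at 765 CPM from 310 counts, while the other 8 female libraries lay between 22.6 and 61.2 CPM, and that library also had the highest epithelial marker sum (1355 CPM).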

How the results depend on the processing

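The members' median depot difference lay between 1.07 and 1.69 over 13 alternatives and between 1.12 and 1.31 with single libraries left out, and C3, Cfb, C2, Serping1, C1s1 and C1ra stayed higher in pgWAT in all of them. Cfd reversed with limma-voom (-0.38), without well column 10 (-0.378) and within column 8 (-0.40), where C4b (-0.215), C1qc (-0.207), Cfp (-0.463) and Itgb2 (-0.0015) reversed as well. Within column 9, where the pgWAT libraries compared did not match their label, Cfp (-1.03), Itgb2 (-0.676) and Masp1 (0.128) reversed. Within column 8 the other complement genes called between depots fell from 11 to 5 and the inducers from 3 to 1. Inducers called were 5 with no filter and 1 without the libraries that went against their label. Members called by sex rose from 0 to 1 in iWAT with well column as a factor, from 0 to 2 in pgWAT with no filter and 1 without the libraries against their label, and from 0 to 1 in the interaction with no filter. Other complement genes called by sex in iWAT went from 2 to 1 with limma-voom and to 5 with no filter, with well column as a factor, without the libraries against their label and within column 7. Leaving out single libraries gave 8 to 12 other complement genes and 3 to 3 inducers called between depots, 2 to 3 other complement genes by sex in iWAT, and 0 to 0 members by sex or interaction. Within-column fits use fewer libraries, and the cause of the other changes was not tested. No paired analysis was possible because the replicate numbers are only names given in order of deposition. Depth limits C7, Cfd and C3 in iWAT, which had few or 0 counts in many libraries.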
